A study of Mus musculus with 12 samples.

Results

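The genes described here move iron across the intestinal epithelium and store it: Cybrd1, Slc11a2, Slc40a1, Heph, Tfrc, Fth1 and Ftl1. They were chosen by name, as every probe set that the platform annotation gives to exactly 1 of these symbols, and this found 15 of 22629 probe sets, for 6 of the 7 genes and of 12393 genes in all. Ftl1, the light chain of ferritin, had no probe set of its own, because each of its 3 probe sets is also listed for the pseudogene Ftl1-ps2, and it has no value here. Of the 15 probe sets, 3 are array controls built on the mouse transferrin receptor and belong to Tfrc.

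Epithelial scrapings of the ileum, the distal part of the small intestine, came from male C57BL/6 mice aged 6 to 8 weeks, either POR-null (lacking cytochrome P450 reductase) or wild type. All mice ate a soya-free powdered RM3 diet for 14 days and then received that diet with quercetin, a plant flavonol (6.2 g per kg, or 7 mg per mouse), or without it, and were killed 24 h later. The 4 groups were POR-null quercetin, POR-null control, wild-type quercetin and wild-type control, with 3 Affymetrix 430A arrays each, and every array was hybridised with a pool of RNA from 3 mice. The labels do not give the tissues that lost the reductase, and Por itself is not analysed here, so its level gives no check of the genotypes. P-values measure the spread between pools, not between single mice.

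Dietary non-haem iron is reduced at the brush border by the ferric reductase Cybrd1 (duodenal cytochrome b), enters the cell through the ferrous iron transporter Slc11a2 (DMT1), and leaves at the basolateral side through Slc40a1 (ferroportin), the target of the liver hormone hepcidin, where the copper-containing oxidase Heph (hephaestin) oxidises it for loading onto transferrin. Tfrc takes transferrin iron back into cells, mainly in the crypts, and ferritin, built of heavy (Fth1) and light (Ftl1) chains, stores iron that is not exported. Iron-regulatory proteins bind the mRNAs of several of these genes and act on translation or on mRNA stability, and HIF-2, the hypoxia-inducible factor of the gut, acts on transcription; most iron is absorbed in the duodenum, not in the ileum. Quercetin binds iron in solution, and the reductase passes electrons to haem oxygenase as well as to P450 enzymes.

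Levels are log2 values as the authors deposited them, and a difference of 1 stands for a 2-fold change. Array medians lay between 5.91 and 5.96, and arrays of a group correlated with r between 0.9917 and 0.9956 across probe sets. Wild-type control replicate 2 stood apart on the first principal component, which held 19.7% of the variance (-25.57, against -10.80 to 10.56 for the other 11 arrays). Of the 5 measured ileal markers, the bile acid genes Fabp6 and Slc51a and the cobalamin receptor Cubn had mean log2 levels of 12.42, 12.09 and 11.75, while Fgf15 and Slc10a2 were at 6.63 and 6.58. Of the 6 measured proximal markers, Ada, Fabp1 and Lct were at 11.31, 9.05 and 8.83, and Gata4, Bco1 and Pdx1 at 6.35, 5.59 and 4.49, so the markers of the labelled segment were present beside some of the proximal ones. The epithelial markers Epcam and Vil1 were at 12.61 and 12.24. The levels of different probe sets are not comparable with each other, so these only place each marker on the array's scale and each gene is compared only with itself between groups. Scrapings are mixtures, so fewer cells of a type and less RNA per cell cannot be told apart.

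No iron gene probe set passed limma's test at an adjusted p under 0.05 in any comparison. The leading difference was in ferroportin, Slc40a1, the iron exporter, which was lower on quercetin than on control in POR-null ileum, by 2.15-fold in one probe set and 1.39-fold in the other. A transferrin receptor probe set was higher on quercetin in both genotypes, by 1.25-fold in wild type and 1.17-fold in POR-null. The Tfrc probe set 1422966_a_at did not share this, and the rest were dim, below the lower quartile of all levels (4.74). Differences of Heph, Fth1 and Slc11a2 with diet were small, with 95% intervals that stayed within 0.49 on the log2 scale on either side of 0.

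**Figure D1:**
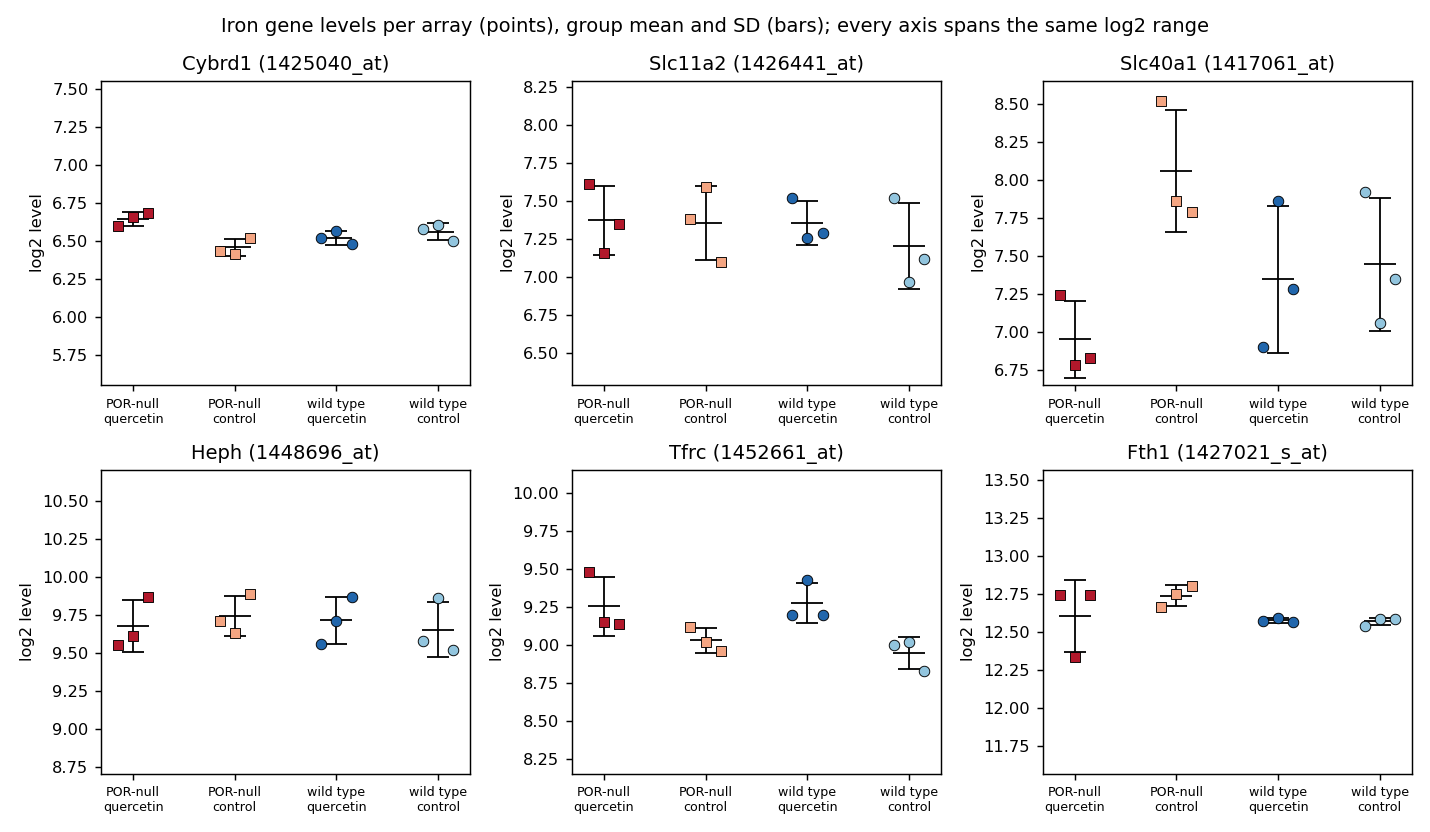
Log2 level on each array (points) of the probe set with the highest mean for each of the 6 measured iron genes, with the mean and SD of the 3 arrays of a group (bars); each vertical axis spans the same log2 range. Slc40a1 varied most, with POR-null control arrays at 7.79 to 8.52 and POR-null quercetin arrays at 6.78 to 7.24.

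The first comparison of the exporter asked how quercetin altered it in POR-null mice. By the Slc40a1 probe set 1417061_at, log2 levels were 7.24, 6.78 and 6.83 in POR-null quercetin arrays, against 8.52, 7.86 and 7.79 in POR-null control arrays. All 3 quercetin arrays lay below all 3 control arrays. Means were 6.95 ± 0.25 on quercetin and 8.06 ± 0.40 on control (SD, n = 3), a difference of -1.11 ± 0.26 (log2, SE) with a 95% interval of -1.66 to -0.55 (limma, unadjusted p = 0.000825, adjusted p = 0.448). By p this probe set ranked 41 of 22629 in this comparison. The Slc40a1 probe set 1448566_at went the same way, with 7.23, 7.40 and 7.31 in POR-null quercetin arrays, against 8.07, 7.61 and 7.69 in POR-null control arrays. Again the groups did not overlap. The difference was -0.48 ± 0.16 (95% interval -0.82 to -0.14; limma adjusted p = 0.691), less than that of the first probe set, and the mean of both probe sets differed by -0.79 ± 0.205 (limma adjusted p = 0.507).

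In wild-type mice the same comparison gave no such separation. Levels of 1417061_at were 6.90, 7.86 and 7.28 in wild-type quercetin arrays, against 7.92, 7.06 and 7.35 in wild-type control arrays. The groups overlapped across most of their range, and each spread over nearly 1 log2 unit. The Slc40a1 difference was -0.10 ± 0.26 (95% interval -0.65 to 0.46) by this probe set and -0.15 ± 0.16 (-0.49 to 0.19) by 1448566_at. The sign of the first turned without wild-type control replicate 1 (0.14) or wild-type quercetin replicate 1 (0.13). The second was -0.03 without wild-type control replicate 1, and turned to 0.04 without wild-type quercetin replicate 1. The quercetin effect in POR-null minus that in wild type was -1.01 ± 0.37 by 1417061_at (95% interval -1.80 to -0.22, limma unadjusted p = 0.0158, adjusted p = 0.427) and -0.33 ± 0.22 by 1448566_at (adjusted p = 0.607). Without wild-type control replicate 2, which stood apart on the first principal component, these were -0.82 and -0.22. A difference between the genotypes in their ferroportin response was not established.

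Between genotypes, the POR-null control group was the highest of the 4 for ferroportin. On the control diet, Slc40a1 was 0.61 ± 0.26 higher in POR-null than in wild type by 1417061_at (means 8.06 and 7.44) and 0.39 ± 0.16 higher by 1448566_at (means 7.79 and 7.40), with limma adjusted p of 0.460 and 0.444. The groups overlapped in both probe sets, because wild-type control replicate 1 (7.92 and 7.64) reached the POR-null control range. Leaving out that array raised the first difference to 0.85, and leaving out POR-null control replicate 1, the highest array of all 12, lowered it to 0.38. Without wild-type control replicate 2, the array apart on the first principal component, the differences were 0.42 by 1417061_at and 0.28 by 1448566_at. On quercetin the order by 1417061_at was the opposite, at 6.95 in POR-null and 7.35 in wild type (-0.40 ± 0.26, adjusted p = 0.779), while by 1448566_at the means were 7.31 and 7.26 (0.06 ± 0.16). Without wild-type quercetin replicate 2 these differences were -0.14 and 0.18, and without wild-type quercetin replicate 1 they were -0.62 and -0.13. In descending order the group means of 1417061_at were POR-null control, wild-type control, wild-type quercetin and POR-null quercetin, and no neighbours in that order differed beyond the threshold.

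Markers of gut segment and of other cells also differed between these groups. The 6 measured of 8 proximal small intestine genes had mean log2 levels of 7.58 to 7.85 in POR-null quercetin arrays and 7.19 to 7.48 in POR-null control arrays, with no overlap, and all 6 had a positive difference though none passed. The same list lay at 7.19 to 7.48 in POR-null control arrays and at 7.63 to 8.51 in wild-type control arrays. The 8.51 was wild-type control replicate 2, which stood apart on the first principal component. The other wild-type control arrays were at 7.63 and 7.68. The 5 measured of 6 ileal genes lay at 9.55 to 9.78 in POR-null quercetin arrays and at 9.61 to 10.12 in POR-null control arrays. Macrophages also carry much ferroportin; the 7 macrophage genes averaged 6.07 to 6.23 in POR-null quercetin arrays and 5.93 to 6.18 in POR-null control arrays. Smooth muscle and stroma genes (8 of 8 measured) averaged 6.42 to 6.96 in POR-null quercetin arrays and 5.78 to 7.30 in POR-null control arrays. They averaged 5.55 to 6.65 in wild-type quercetin arrays and 5.51 to 6.13 in wild-type control arrays. All 8 were higher in POR-null on each diet, with median differences of 0.77 on control and 0.76 on quercetin. The 7.30 was POR-null control replicate 1, which also had the highest Slc40a1 levels. The 3 measured of 5 Paneth cell genes averaged 10.58 to 11.07 in POR-null quercetin arrays and 10.05 to 10.53 in POR-null control arrays, with no overlap and 3 of 3 positive (median difference 0.46). The 4 measured of 5 B cell genes averaged 7.79 to 8.12 in POR-null quercetin arrays and 8.02 to 8.32 in POR-null control arrays (median -0.46, 1 of 4 positive), and their median quercetin difference in POR-null minus that in wild type was -0.96, with 0 of 4 positive.

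In wild type, where the Slc40a1 intervals held 0, the segment markers differed as well. The proximal list lay at 7.02 to 7.82 in wild-type quercetin arrays and at 7.63 to 8.51 in wild-type control arrays, with 0 of 6 positive and a median difference of -0.28. The 8.51 was again wild-type control replicate 2, and the other wild-type control arrays (7.63 and 7.68) lay within the quercetin range. The ileal list lay at 9.80 to 10.39 in wild-type quercetin arrays and at 9.60 to 9.91 in wild-type control arrays, with 5 of 5 positive and a median of 0.15. The B cell list lay at 8.35 to 8.57 in wild-type quercetin arrays and at 7.63 to 8.15 in wild-type control arrays, with no overlap. None of these markers passed the test in any comparison, and their part in the Slc40a1 differences was not tested.

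**Figure D2:**
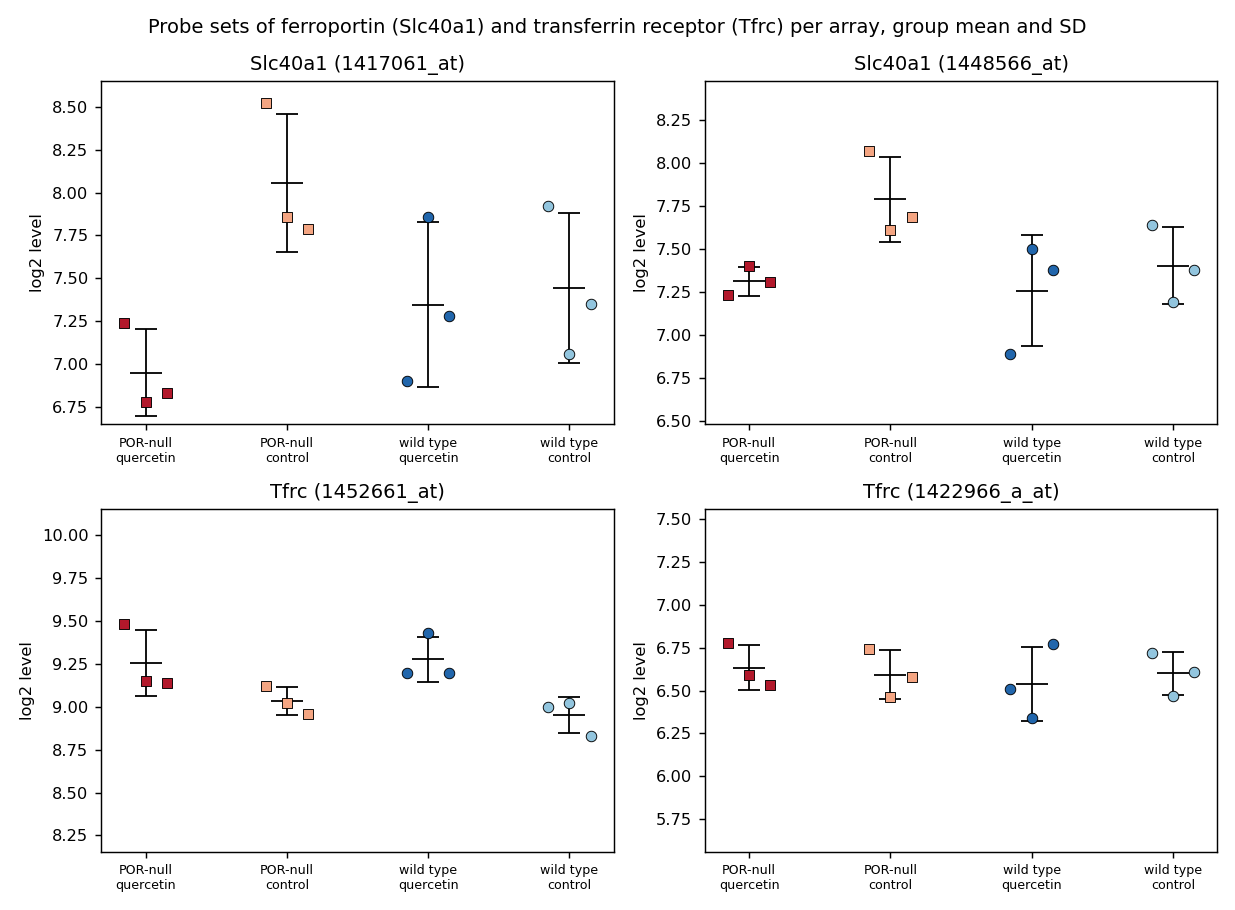
Log2 level on each array (points), with group mean and SD (bars, n = 3), for both Slc40a1 probe sets and for the Tfrc probe sets 1452661_at and 1422966_a_at. Both Slc40a1 probe sets separate POR-null quercetin from POR-null control arrays, whereas the quercetin difference of Tfrc appears in 1452661_at and not in 1422966_a_at.

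Uptake at the brush border was described by Cybrd1 and Slc11a2. Cybrd1, the ferric reductase, had log2 levels of 6.60, 6.66 and 6.69 in POR-null quercetin arrays, against 6.44, 6.42 and 6.52 in POR-null control arrays. The quercetin arrays all lay above the control arrays, and the whole gap was small. The difference was 0.19 ± 0.065 (95% interval 0.05 to 0.33; limma adjusted p = 0.697), or 1.14-fold. In wild type Cybrd1 was at 6.52, 6.57 and 6.48 in quercetin arrays, against 6.58, 6.61 and 6.50 in control arrays. These overlapped, with a difference of -0.04 ± 0.065, and the 2 responses differed by 0.23 ± 0.09 (limma adjusted p = 0.446). Between genotypes Cybrd1 differed by 0.13 ± 0.065 on quercetin, with no overlap, and by -0.10 ± 0.065 on control. The proximal small intestine list had the same sign as Cybrd1 in these comparisons: its median difference was 0.31 for quercetin in POR-null (6 of 6 positive), -0.28 for quercetin in wild type (0 of 6), 0.82 between those responses (6 of 6), 0.14 for genotype on quercetin (4 of 6) and -0.60 for genotype on control (0 of 6), and its part in the Cybrd1 differences was not tested. Proximal differences that use wild-type control arrays include replicate 2, at 8.51 against 7.63 and 7.68 for the other wild-type control arrays.

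Both HIF-2 and its relative HIF-1 bind the core motif ACGTG or GCGTG, so the promoter windows held for 4 of the 7 genes (Cybrd1, Tfrc, Fth1 and Ftl1; RefSeq, GRCm38.p6, 250 bases before to 50 after a gene's start) were searched for it on both strands. The windows of the brush border reductase and of the gene start of the transferrin receptor are shown because these genes stand at the entry of iron from the lumen and from the blood; capitals mark ACGTG or GCGTG, read on either strand (CACGT and CACGC on the other).
Cybrd1, chr2:71117804-71118103, plus strand: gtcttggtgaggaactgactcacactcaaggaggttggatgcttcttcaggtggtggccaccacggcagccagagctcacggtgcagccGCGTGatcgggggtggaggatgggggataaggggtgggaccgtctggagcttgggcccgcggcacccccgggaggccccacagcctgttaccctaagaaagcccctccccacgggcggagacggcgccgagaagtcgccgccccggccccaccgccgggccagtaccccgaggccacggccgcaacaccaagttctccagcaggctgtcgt
Tfrc, chr16:32608646-32608945, plus strand: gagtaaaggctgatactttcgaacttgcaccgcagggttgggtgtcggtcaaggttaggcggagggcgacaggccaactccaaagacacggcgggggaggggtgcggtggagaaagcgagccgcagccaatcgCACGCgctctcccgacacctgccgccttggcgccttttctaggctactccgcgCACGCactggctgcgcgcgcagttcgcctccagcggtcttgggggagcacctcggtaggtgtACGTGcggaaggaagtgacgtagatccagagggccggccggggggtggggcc
Positions count from the gene's start, negative before it, and give the leftmost base of a match. Cybrd1 holds GCGTG once, at -161. The Tfrc window shown holds ACGTG once, at -2 and so across the start, and GCGTG on the other strand at -117 and -64. A window of another Tfrc start (chr16:32608872-32609171) overlaps the one shown and holds ACGTG at -228 and GCGTG at -134 and -42, counted from its own start and all on the plus strand. The Ftl1 window and 1 of 2 Fth1 windows hold GCGTG once each. Of all 32851 promoter windows 43.8% hold ACGTG or GCGTG, so a match is no distinction of these genes.

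Slc11a2, the ferrous iron importer, was read by 3 probe sets. None separated the diets: differences on quercetin ran from 0.02 to 0.10 in POR-null and from -0.02 to 0.15 in wild type. By 1452078_a_at, a probe set for several transcripts of the gene, POR-null levels were above wild type on both diets. They were 7.18, 7.23 and 7.06 in POR-null quercetin arrays, against 6.80, 6.84 and 7.07 in wild-type quercetin arrays. They were 7.02, 7.11 and 7.05 in POR-null control arrays, against 6.97, 6.85 and 6.75 in wild-type control arrays. The groups overlapped on quercetin by 1 array and did not overlap on control. Averaged over both diets, this Slc11a2 probe set was 0.23 ± 0.06 higher in POR-null (95% interval 0.10 to 0.36; limma unadjusted p = 0.00226, adjusted p = 0.380). The other Slc11a2 probe sets differed between genotypes by 0.085 ± 0.11 (1426441_at) and -0.05 ± 0.06 (1417584_at) on average, and the mean of all 3 by 0.09 ± 0.05 (adjusted p = 0.773).

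**Figure D3:**
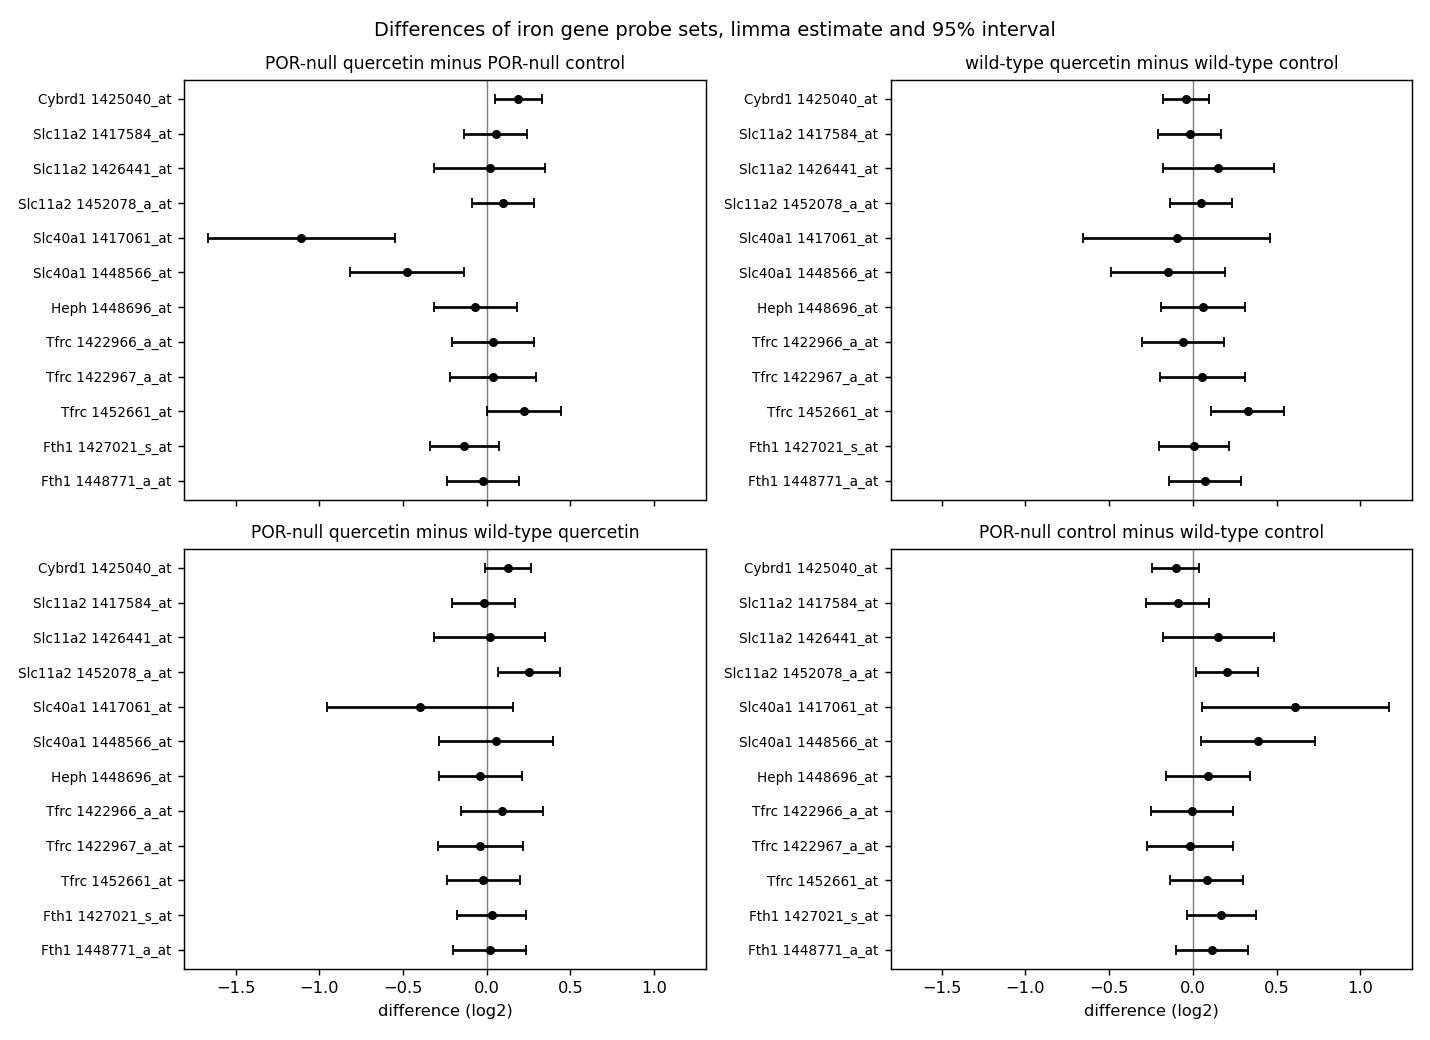
Difference in log2 level (limma estimate, points) with its 95% interval (bars) for the 12 iron gene probe sets that are not array controls, in 4 comparisons of 2 groups, with the vertical line at 0. The intervals of both Slc40a1 probe sets lie below 0 for POR-null quercetin minus POR-null control, and the other intervals that leave out 0 belong to Cybrd1, Tfrc 1452661_at and Slc11a2 1452078_a_at, and to Slc40a1 on the control diet.

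Tfrc, which takes up transferrin iron, was read by 6 probe sets. By 1452661_at, its levels were 9.20, 9.43 and 9.20 in wild-type quercetin arrays, against 9.00, 9.02 and 8.83 in wild-type control arrays. They were 9.48, 9.15 and 9.14 in POR-null quercetin arrays, against 9.12, 9.02 and 8.96 in POR-null control arrays. The diets did not overlap in either genotype, with quercetin the higher, but in POR-null the lowest quercetin array and the highest control array were nearly level. The difference was 0.33 ± 0.10 in wild type (95% interval 0.11 to 0.55; limma unadjusted p = 0.00640, adjusted p = 0.301) and 0.22 ± 0.10 in POR-null (adjusted p = 0.737), and 0.275 ± 0.07 on average (unadjusted p = 0.00193, adjusted p = 0.538). Without POR-null quercetin replicate 1 the POR-null difference was 0.11. The responses of the genotypes differed by -0.10 ± 0.14 (95% interval -0.41 to 0.21).

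The other probe sets of Tfrc did not show this difference. The probe set 1422966_a_at differed on quercetin by -0.06 ± 0.11 in wild type and 0.04 ± 0.11 in POR-null, and 1422967_a_at by 0.06 ± 0.12 and 0.04 ± 0.12. The 3 array controls, which read the 3' end, the middle and the 5' end of the Tfrc transcript, lay near the bottom of the array's scale, at 4.54 to 4.83 (3' end), 3.35 to 3.52 (middle) and 3.37 to 3.55 (5' end) over all 12 arrays, and their quercetin differences ran from -0.06 to 0.06 in wild type and from -0.01 to 0.05 in POR-null. The mean of the 6 Tfrc probe sets differed by 0.06 ± 0.07 in each genotype (limma adjusted p = 0.746 in wild type and 0.868 in POR-null), but it includes 4 dim probe sets, below the lower quartile of all levels (4.74), and so does not test the difference of 1452661_at. Tfrc is used by cycling crypt cells and by erythroid cells. The 7 measured of 9 crypt and cycling genes averaged 6.96 to 7.12 in wild-type quercetin arrays and 6.54 to 6.97 in wild-type control arrays. The 6.54 was wild-type control replicate 2. In POR-null they averaged 6.81 to 7.07 in quercetin arrays and 6.84 to 7.04 in control arrays. On quercetin 6 of 7 had a positive difference in each genotype, with medians of 0.31 in wild type and 0.06 in POR-null. The 2 measured of 6 erythroid genes, Hba-a1 and Alas2, averaged 4.96 to 5.27 in wild-type quercetin arrays and 5.12 to 5.36 in wild-type control arrays. They averaged 5.04 to 5.23 in POR-null quercetin arrays and 4.94 to 5.13 in POR-null control arrays. Their median quercetin difference was -0.13 in wild type (0 of 2 positive) and 0.10 in POR-null (2 of 2 positive). The part of these cells in the Tfrc values was not tested.

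Oxidation and storage were read by Heph and Fth1. Heph lay between 9.52 and 9.89 on all 12 arrays, with group means of 9.68 ± 0.17 in POR-null quercetin, 9.74 ± 0.13 in POR-null control, 9.71 ± 0.155 in wild-type quercetin and 9.65 ± 0.18 in wild-type control (SD, n = 3). Its differences were 0.06 ± 0.12 with quercetin in wild type (95% interval -0.19 to 0.31) and -0.07 ± 0.12 in POR-null (-0.32 to 0.18). Fth1 by 1427021_s_at, a probe set whose suffix marks sequence shared with other transcripts, had means of 12.60 ± 0.24 in POR-null quercetin, 12.74 ± 0.07 in POR-null control, 12.57 ± 0.02 in wild-type quercetin and 12.57 ± 0.02 in wild-type control. All POR-null control arrays (12.66, 12.75 and 12.80) lay above all wild-type control arrays (12.54, 12.58 and 12.58), a difference of 0.17 ± 0.10 (limma adjusted p = 0.563). By 1448771_a_at these groups overlapped and Fth1 differed by 0.11 ± 0.10. In POR-null quercetin arrays 1 value, 12.33, was the lowest of all 12 by 1427021_s_at, while the other 2 were both 12.74. Ferritin heavy chain has many processed pseudogenes, so the source of the Fth1 signal is uncertain, and ferritin is mainly controlled at translation, which arrays do not read.

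The counts of iron probe sets are read here against those of all 22629. In POR-null mice on quercetin 0 of 15 passed at an adjusted p under 0.05, as did 0% of all, and 4 of 15 (both of Slc40a1, that of Cybrd1 and 1 of Tfrc) had an unadjusted p under 0.05, against 6.65% of all. The same 4 of 15 had groups that did not overlap, against 12.6% of all, 2 of them higher (7.45% of all) and 2 lower (5.11%). For quercetin in wild type 0 of 15 passed, against 0.00442% of all, and 1 of 15 had an unadjusted p under 0.05, against 10.9%. That 1 Tfrc probe set was also the 1 without overlap, against 13.4% of all, or 5.33% higher and 8.08% lower.

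For genotype on the control diet 0 of 15 passed, against 0%, and 3 of 15 had an unadjusted p under 0.05, against 10.1%. Here 2 of 15 did not overlap (Slc11a2 1452078_a_at and Fth1 1427021_s_at, both higher), against 13.9%, or 5.15% higher and 8.71% lower. For genotype on quercetin 0 of 15 passed, against 0%, 1 of 15 had an unadjusted p under 0.05, against 7%, and 2 of 15 did not overlap, both higher, against 12.3%, or 7.28% higher and 5% lower. At an unadjusted p under 0.05 there were 2 of 15 for the difference between the quercetin responses, against 10.3%, 3 of 15 for the average quercetin effect, against 7.44%, and 1 of 15 for the average genotype effect, against 7.13%. The median difference of the 15 was 0.03 for quercetin in POR-null and 0.05 in wild type, where those of all probe sets were 0.01 and -0.02. Of these 15, 6 belong to Tfrc. By the probe set with the highest mean of each of the 6 genes, the medians were -0.025 in POR-null and 0.033 in wild type. In POR-null 3 of these 6 were higher on quercetin and 3 lower, and in wild type 4 were higher and 2 lower.

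Whether the iron genes vary together among pools was asked for the 15 pairs of the 6 measured genes. No pair passed after adjustment (permutation test with 100000 resamples, Benjamini-Hochberg over 15 pairs). Cybrd1 and Slc40a1 were the most strongly related pair, with r = -0.64 and rho = -0.65 over 12 arrays (permutation p = 0.0247 and 0.0257, adjusted p = 0.371 and 0.386). Without the 2 arrays farthest from the Cybrd1 median r was -0.55, and for deviations from group means it was -0.09 (permutation p = 0.823). Slc40a1 and Tfrc had r = -0.11 across all arrays (adjusted p = 0.911), but r = 0.66 for deviations from group means (permutation p = 0.0372, adjusted p = 0.500), the highest within-group r of the 15 pairs. Slc11a2 and Heph had r = -0.495 across all arrays (adjusted p = 0.772) and -0.61 within groups (permutation p = 0.0927, adjusted p = 0.500).

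Of other genes on the array, those whose pattern was most like each iron gene were picked by Pearson r over the 12 arrays among 7209 genes, a search that always returns high values. For Slc40a1 they were Ptbp3, an RNA-binding splicing regulator (r = 0.85), Fosl2, an AP-1 transcription factor (0.84), and Map4, a microtubule-associated protein (0.83). For Tfrc they were Tor1aip1 (0.895), Specc1 (0.87) and Tspan14 (0.84), for Cybrd1 Plekhh3 (0.87), Slamf9 (0.85) and Zfp334 (0.83), and for Slc11a2 Zfp35 (0.915), Mettl6 (0.90) and Zc3h14 (0.87). For Heph they were Rab6a (0.895), Ccdc91 (0.86) and Prxl2b (0.86), and for Fth1 Rassf3 (0.845), Vapb (0.83) and Fbxo3 (0.82). None of these was an iron gene of the lists that follow.

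Further iron genes were taken from 6 lists by role, 78 names of which 65 were measured, and 0 of 65 passed limma's test in either direction in any of the 4 comparisons of 2 groups. At an unadjusted p under 0.05 there were 2 higher and 5 lower on quercetin in POR-null (10.8% of 65, against 6.65% of all probe sets), 4 higher and 2 lower on quercetin in wild type (9.23%, against 10.9%), 3 higher and 6 lower in POR-null on control (13.8%, against 10.1%), and 2 higher and 4 lower in POR-null on quercetin (9.23%, against 7%). Medians over the 65 lay between -0.03 and 0.00 in these comparisons.

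Among regulators of iron genes, Pcbp2, an iron chaperone and RNA-binding protein, was at 9.81 ± 0.02 in POR-null quercetin and 10.04 ± 0.16 in POR-null control arrays (-0.23 ± 0.09, limma adjusted p = 0.711), and its partner Pcbp1 differed by 0.07 ± 0.11. Ireb2, iron-regulatory protein 2, differed by -0.12 ± 0.09 in POR-null and 0.15 ± 0.09 in wild type. In the list of the hepcidin axis, Hamp, hepcidin itself and chiefly a liver product, was at 5.09 ± 0.03 in POR-null control and 5.25 ± 0.02 in wild-type control (-0.17 ± 0.07), a gap of little size. Smad7, an inhibitor of BMP and TGF-beta signalling, was at 8.11 ± 0.17 in POR-null quercetin and 8.45 ± 0.08 in wild-type quercetin, and Smad4, the shared SMAD partner, differed by 0.19 ± 0.10 on quercetin in wild type. Adjusted p was 0.435 or more for these by limma.

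Of 13 measured genes of the HIF axis, 10 had negative and 3 positive differences on quercetin in POR-null, with a median of -0.04, and 9 had negative and 4 positive ones in wild type, also with a median of -0.04. Medians over all genes were 0.02 in POR-null and -0.02 in wild type, so these list medians lay near those of all genes. Hif1a was at 7.79 ± 0.07 in POR-null control and 8.20 ± 0.225 in wild-type control, with no overlap (-0.40 ± 0.12, limma adjusted p = 0.338). Its highest wild-type control value, 8.43, was that of replicate 2, against 7.98 and 8.18 for the others. On quercetin the genotypes overlapped in Hif1a, at 7.53, 7.76 and 7.98 in POR-null and 8.01, 8.03 and 7.88 in wild type. Bnip3, a mitophagy receptor induced by hypoxia, was at 6.55 ± 0.24 in POR-null quercetin and 6.94 ± 0.07 in POR-null control (-0.38 ± 0.14, adjusted p = 0.697), and Ndrg1, another hypoxia target, was at 9.05 ± 0.18 in POR-null quercetin and 8.66 ± 0.215 in wild-type quercetin (0.39 ± 0.15). Epas1, which encodes HIF-2 alpha and is named here for its role after its values were seen, differed by -0.07 ± 0.13 in POR-null and -0.04 ± 0.13 in wild type.

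**Figure D4:**
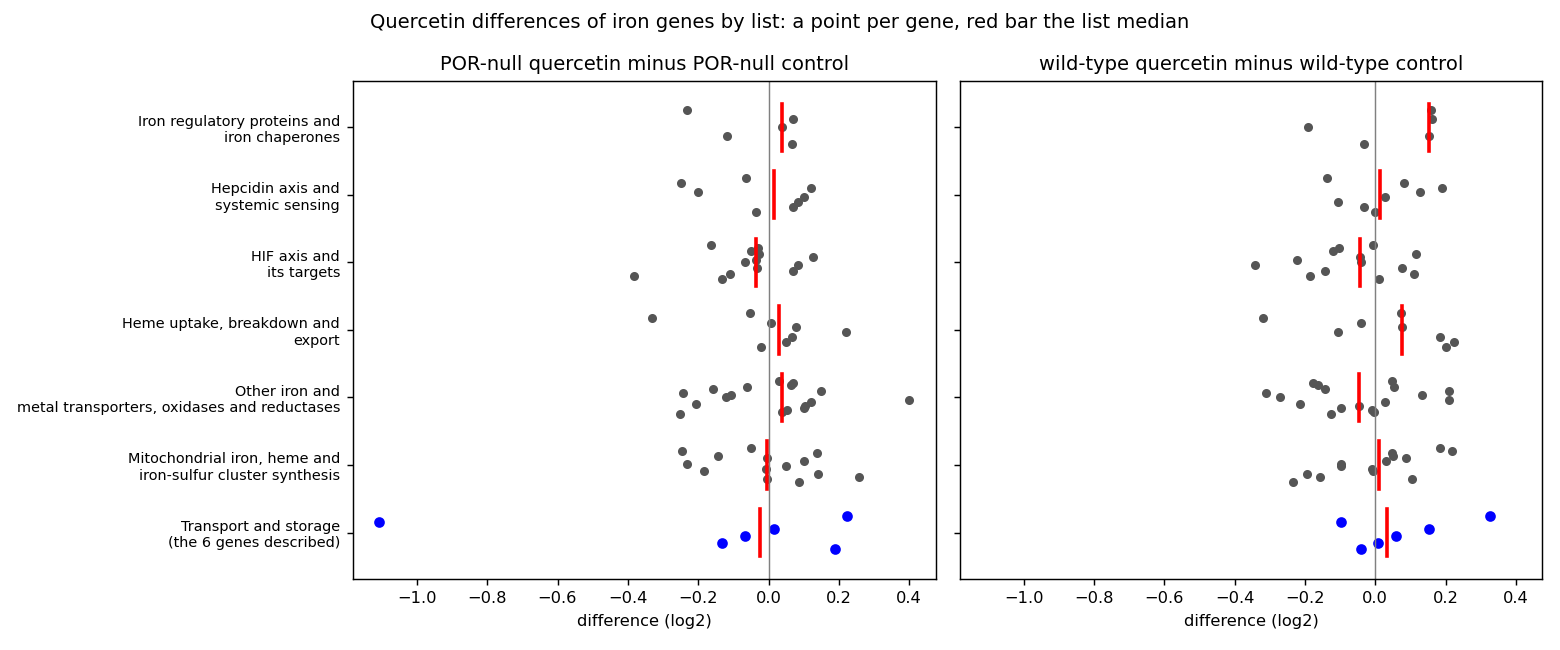
Difference in log2 level on quercetin in POR-null (left) and wild type (right) for 65 further iron genes in 6 lists (grey points, 1 per gene) and for the 6 iron genes described (blue points), with the median of each list as a red bar. Slc40a1 in POR-null, at -1.11 by 1417061_at, lies outside the range of all 65 further genes there, -0.38 to 0.40. The SD of 1417061_at within groups was at percentile 99.1 of all probe sets, so large differences come more easily to it. The probe set 1448566_at, not drawn, was at -0.48.

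Haem handling was of interest because haem oxygenase receives electrons from the reductase. The labels do not say whether the ileum lost the reductase, so the values below do not show haem oxygenase without it. Hmox1 and Hmox2, the haem oxygenases, named here for that role after their values were seen, differed by no more than 0.08 in any of the 4 comparisons; Hmox1 was at 5.82 ± 0.07 in POR-null control and 5.81 ± 0.04 in wild-type control. Abcg2, an exporter of porphyrins and of many foreign compounds, was at 10.90, 10.82 and 10.74 in POR-null control arrays, against 10.56, 10.39 and 10.47 in wild-type control arrays. The groups did not overlap, with a difference of 0.35 ± 0.08 (limma unadjusted p = 0.00100, adjusted p = 0.283). On quercetin Abcg2 did not separate the genotypes, at 10.94, 10.73 and 10.73 in POR-null arrays and 10.56, 10.73 and 10.73 in wild-type arrays. Blvra, biliverdin reductase, was higher by 0.22 ± 0.08 on quercetin in wild type and by 0.21 ± 0.08 in POR-null on control, and Flvcr1, a haem exporter, by 0.22 ± 0.09 on quercetin in POR-null, where in wild type Flvcr1 differed by -0.11 ± 0.09, with none past the threshold.

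The iron gene with the smallest p in any of the 4 comparisons was Slc25a37 (mitoferrin 1), the mitochondrial iron importer. It was at 8.32, 8.13 and 8.37 in POR-null quercetin arrays, against 8.73, 8.82 and 8.75 in wild-type quercetin arrays. The groups were well apart, with a difference of -0.49 ± 0.10 (limma unadjusted p = 0.000167, adjusted p = 0.210), and on control the genotypes differed by -0.03 ± 0.10. Isca1, an iron-sulfur cluster assembly protein, was at 8.01 ± 0.06 in POR-null quercetin and 8.25 ± 0.02 in wild-type quercetin (-0.24 ± 0.07, adjusted p = 0.500). Alas2, the erythroid enzyme of haem synthesis, was at 5.32 ± 0.12 in POR-null control and 5.69 ± 0.18 in wild-type control (-0.37 ± 0.10, adjusted p = 0.334). Among other metal transporters, Mcoln1, a lysosomal channel that passes iron, was lower on quercetin by 0.21 ± 0.08 in each genotype, Slc31a1, the copper importer, by 0.31 ± 0.13 in wild type and 0.24 ± 0.13 in POR-null, and Steap3, an endosomal ferrireductase, by 0.18 ± 0.08 in wild type, whereas in POR-null Steap3 differed by 0.07 ± 0.08, with none past the threshold.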

How the data were processed

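Affymetrix 430A arrays were each hybridised with RNA from 3 pooled mice. The deposited values are on the log2 scale. MAS5 and RMA are named, without role or version, per the submitters' processing notes. The values, from 2.66 to 14.04, were used without further normalization, and the number of arrays limits the precision. Of 22690 probe sets, 64 are array controls and were left out except the 3 annotated to Tfrc. Of the 22629 fitted, 20383 had 1 symbol, 691 several and 1555 none. Symbols were updated by gene ID through the GRCm38.p6 gene table (20354 matched, 29 did not).

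The 4 group means were estimated together by limma 3.58.1 under R 4.3.3 (8 residual and 5.59 prior degrees of freedom), two-sided, with Benjamini-Hochberg adjustment over all fitted probe sets and a threshold of 0.05. Intervals are 95% and not adjusted. A gene outside the members is represented by its probe set with the highest mean. In each further iron list, the 3 genes with the smallest p over the 4 comparisons of 2 groups are named; likeness used genes above the median level (5.93). The members and lists were chosen with earlier results of these data known. The procedure was tested on simulated data.

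Alternatives were quantile normalization, median centring, 2 filters on dim probe sets, array weights, a robust and trended eBayes, the replicate block, fits of only the arrays compared, averaging a gene's probe sets, no array controls, a threshold of 0.1 and leaving out each array. Figures were drawn with Python 3.11.15 and matplotlib 3.10.9.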

Additional observations from a re-analysis of the deposited data

How the results depend on the processing

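No iron gene probe set passed the threshold under any of 23 alternatives, and no pair of iron genes passed under the 4 tried for the correlations. The lowest adjusted p among 2230 values was 0.197 (limma, Tfrc 1452661_at, quercetin in wild type, without wild-type control replicate 1). Of 105 differences (15 probe sets in 7 contrasts), 53 had the opposite sign under some alternative; none of these exceeded 0.147 in size as reported. The Slc40a1 difference on quercetin in POR-null (1417061_at) stayed between -1.25 and -0.79. The mean of the Tfrc probe sets gave 0.06 in each genotype in place of 0.33 and 0.22, but 4 of the 6 lie below the lower quartile of levels (4.74), so that mean is no test of 1452661_at. Over all probe sets, the count past the threshold for quercetin in wild type was 1. It was 0 to 13 under the settings other than leaving out each array, where the 13 came with the looser threshold of 0.1. Without wild-type control replicate 1 it was 59. For genotype on control the count was 0, and 15 without that array. For quercetin in POR-null it was 0 throughout. Replicate numbers are shared by the groups, yet only 3 of 18 same-numbered pairs had deviations correlated above 0.1 (-0.179 to 0.162), and 14 of 36 best matches had the same number. So no pairing by number was seen, but with 3 arrays per group these checks cannot exclude one. With the replicate block, 0 iron probe sets passed, and 5 of all probe sets did for quercetin in wild type. For the difference between the quercetin responses 3 of all probe sets passed with the block, against 0 without it. Filters on dim probe sets left out the Tfrc array controls and 1422967_a_at.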
